A study of Rattus norvegicus with 8 samples.

Results

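Toll-like receptors are sensors of the innate immune system, and the genes described here are 4 of them (Tlr2, Tlr3, Tlr4 and Tlr7) with the co-receptors Cd14, Ly86 and Ly96, the shared adaptor Myd88 and the endogenous ligand Hmgb1. Members were the probe sets annotated to exactly 1 of these 9 symbols. A probe set, the array's set of short probes for 1 transcript, was found for 8 of the 9 genes, and Tlr3 has none under its symbol among the probe sets used here. The 8 genes are read by 9 probe sets, 1 each and 2 for Hmgb1, of 31042 on the array, control probe sets left out. Of the 31042, 20826 carry a single symbol and stand for 14217 genes.

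Each Toll-like receptor is a membrane protein that recognises a class of microbial molecules or molecules released by injured cells. Tlr2 and Tlr4 act at the cell surface, where Tlr4 needs Ly96 (MD-2) to bind lipopolysaccharide and Cd14 hands the lipid over, whereas Tlr7 reads single-stranded RNA and Tlr3 double-stranded RNA inside endosomes. Most of these receptors signal through the adaptor Myd88 to NF-kB and to interferon regulatory factors, and in the brain they are known above all from microglia, the resident phagocytes. Ly86 (MD-1) pairs with Cd180, a receptor relative without the signalling domain of the family, and Hmgb1 is a nuclear chromatin protein that activates Tlr4 once it is released.

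The samples were laser-microdissected from the rat amygdala on the operated side and held its basal and lateral nuclei. All rats carried an electrode in the amygdala and had 5 habituation sessions in the training apparatus. Epileptogenic rats had status epilepticus, a prolonged seizure, induced by stimulating the amygdala; they had at least 40 HAFDs (an abbreviation that the labels leave unexplained) in its first 3 h, and showed no spontaneous seizure during the study. Control rats were operated and not stimulated. On day 8 every rat received 2 trials. Each held a footshock of 1.5 mA for 1 s and a tone of 75 dB for 20 s. In paired training the tone ended together with the shock, and in unpaired training the tone followed the shock; tissue was taken 3 h later. There was no group without tone and shock. The 4 groups (control or epileptogenic, each with unpaired or paired training) had 2 arrays each, lettered A and B. Each array held RNA amplified in 2 rounds and pooled from 2 of the group's 4 rats, so a p-value measures the spread between these arrays and not between single animals.

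Values are Affymetrix signals, the brightness of a probe set on a linear scale, and differences are on the log2 scale. Median signals per array lay between 29.0 and 43.2, and correlations between arrays were 0.851 to 0.925, with 0 identical pairs. A probe set was tested where its mean log2 signal over the 8 arrays exceeded 4.35 (a signal of 20.3), which left 18625. Of the 8 genes, 7 passed, and Cd14 did not. Tlr2 and Tlr4 had control means below that level (4.22 and 3.54) and were tested only through the epileptogenic arrays, where they were high. Counts over the genes tested are therefore descriptions and support nothing. Excitatory neuron markers of the dissected nuclei (Slc17a7, Camk2a and Neurod6) lay above that level, Tbr1 lay below it, and Rspo2 has no probe set. Signals of different probe sets are not comparable as levels, and no order among the genes was drawn from them.

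The 250 bases before the transcription start are shown for the 3 receptors measured, whose groups did not overlap, and for Hmgb1, whose groups did, so that this sequence can be read beside the signals. They come from RefSeq on the rat build GRCr8, and 7 of the 9 genes were in that table, all but Ly86 and Ly96. The start is the one set in that table, which can differ from the outer end of the annotated gene. The gene span of Tlr2, on the minus strand, reaches to 171504831, so its stretch lies within the gene. The same holds for Cd14, whose span reaches to 28611409. The span of Tlr7 begins at 30644324, inside its stretch. Capitals mark letters of a motif match. The motifs were GAGGAA (the core of PU.1, a myeloid transcription factor), GAAANNGAA (a core of interferon regulatory factor sites) and the NF-kB consensus, each searched on both strands from 250 bases before to 50 bases after the start.
Tlr7, chrX:30644176-30644425, plus strand: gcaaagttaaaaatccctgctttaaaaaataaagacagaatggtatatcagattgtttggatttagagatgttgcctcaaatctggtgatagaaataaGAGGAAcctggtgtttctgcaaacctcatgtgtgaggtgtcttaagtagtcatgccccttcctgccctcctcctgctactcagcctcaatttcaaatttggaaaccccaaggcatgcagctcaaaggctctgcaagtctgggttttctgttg
Tlr4, chr5:85160997-85161246, plus strand: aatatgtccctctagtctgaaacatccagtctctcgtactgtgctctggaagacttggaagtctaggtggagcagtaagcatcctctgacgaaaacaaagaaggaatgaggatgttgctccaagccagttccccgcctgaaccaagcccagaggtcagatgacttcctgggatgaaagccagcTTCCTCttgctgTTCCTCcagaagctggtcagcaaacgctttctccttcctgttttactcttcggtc
Tlr2, chr2:171504558-171504807, minus strand: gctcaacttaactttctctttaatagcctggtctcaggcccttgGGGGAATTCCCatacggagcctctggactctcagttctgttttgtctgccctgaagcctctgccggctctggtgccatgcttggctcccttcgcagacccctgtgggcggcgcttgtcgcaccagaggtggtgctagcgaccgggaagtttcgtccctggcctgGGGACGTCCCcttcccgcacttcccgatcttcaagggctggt
Hmgb1, chr12:11008986-11009235, plus strand: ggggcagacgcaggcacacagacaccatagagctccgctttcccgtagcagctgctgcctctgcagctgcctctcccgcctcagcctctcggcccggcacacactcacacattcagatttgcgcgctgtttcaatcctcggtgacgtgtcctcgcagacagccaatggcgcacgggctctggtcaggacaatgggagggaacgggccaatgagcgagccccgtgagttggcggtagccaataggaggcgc
The Tlr7 stretch holds 1 PU.1 core at position -152 from the start, and that of Tlr4 holds 2, at -67 and -55 on the opposite strand. The Tlr2 stretch holds the NF-kB consensus at 2 places, with overlapping matches at -206 and -205 and a palindromic one at -42. Of the promoters not printed, that of Cd14 holds PU.1 cores at -140 and -105 and an interferon regulatory factor core at 6, that of Myd88 holds the latter core at -16, and that of Tlr3 a PU.1 core at -7. Hmgb1 has none of the 3 motifs in this window. Over all 33469 promoters of the table the PU.1 core occurs in 27.6%, the interferon regulatory factor core in 9.71% and the NF-kB consensus in 7.51%, and a match describes letters only.

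The comparison of 4 epileptogenic with 4 control arrays asks how these genes differ in the amygdala during epileptogenesis, in rats that had all been trained 3 h before. Tlr7, Ly86 and Ly96 rose, by 5.26-fold, 3.93-fold and 2.98-fold. These 3 of the 7 genes tested passed (limma, adjusted p under 0.05), and 0 fell. Over all probe sets 2.81% were called higher in the epileptogenic arrays. Tlr2, Tlr4 and Myd88 had higher means that did not pass this fit, and Hmgb1 had a 95% interval that spans 0. In bulk tissue, more cells of a type and more RNA per cell cannot be told apart.

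**Figure D1:**
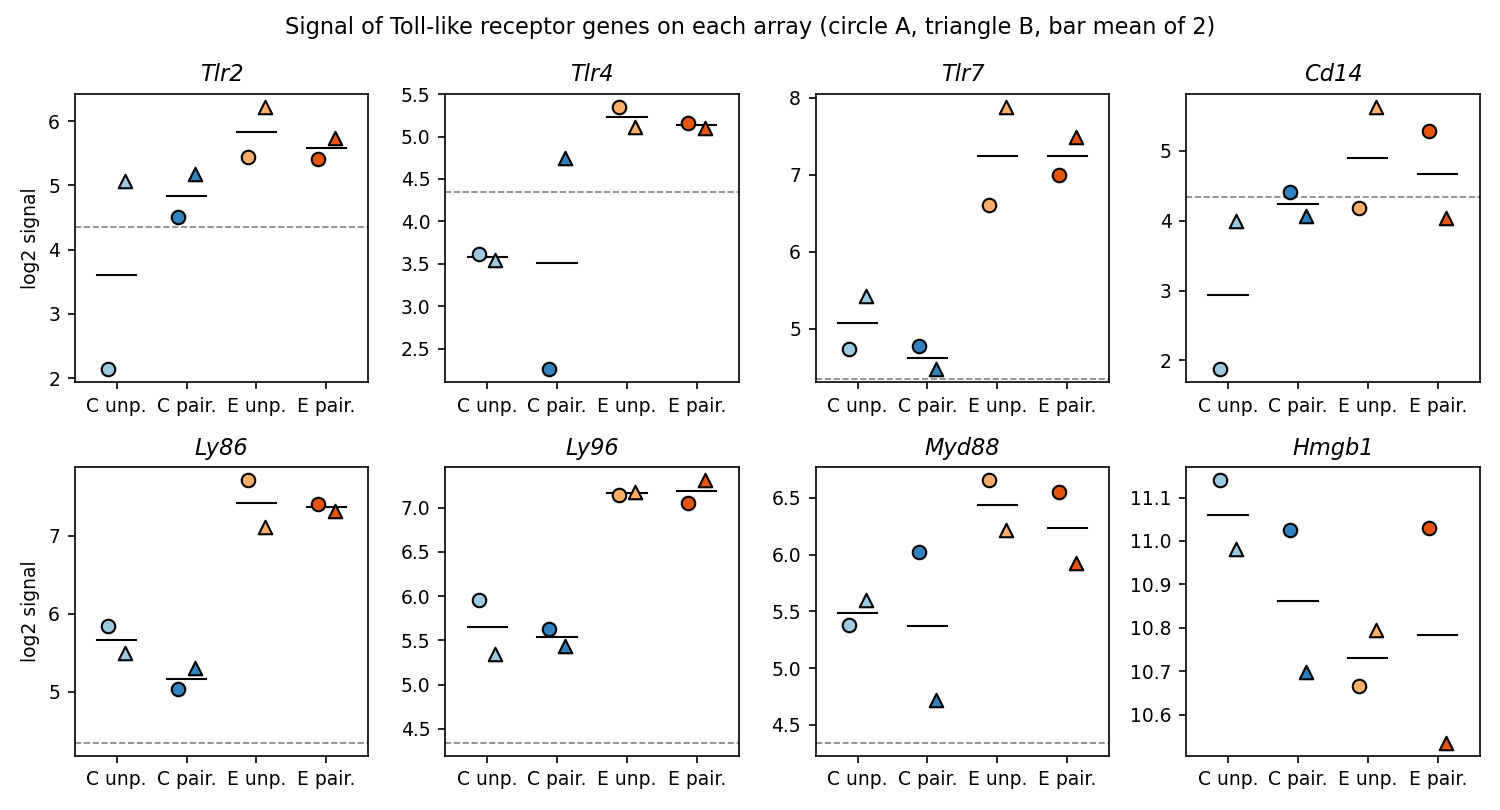
Each panel plots the log2 signal of 1 gene on the 8 arrays (C, control; E, epileptogenic; unp., unpaired training; pair., paired training), with circles for letter A, triangles for letter B, a bar for the mean of each group's 2 arrays and a dashed line at the level of the filter (4.35). The axes have different ranges and do not start at 0; Tlr7, Ly86 and Ly96 separate the epileptogenic from the control arrays by a wide gap, and Hmgb1 does not separate them.

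Tlr7, the endosomal RNA receptor (probe set 1382531_at), had the largest difference of these genes. On the control arrays its signal was 26.6 and 42.8 after unpaired training (A and B) and 27.4 and 22.3 after paired training. On the epileptogenic arrays it was 97.5 and 237 after unpaired training and 128 and 180 after paired training. Every epileptogenic array lay above every control array, and no value lay between 42.8 and 97.5. The log2 mean was 4.85 ± 0.40 (SD, n = 4) in controls and 7.25 ± 0.56 (SD, n = 4) in epileptogenic arrays, a difference of 2.40 ± 0.33 (SE; 95% interval 1.64 to 3.15; limma adjusted p = 0.00650).

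Ly86, the partner of Cd180 (1393280_at), gave control signals of 57.2 and 45.1 after unpaired and 32.6 and 39.4 after paired training. Its epileptogenic signals were 210.15 and 139 after unpaired and 170.1 and 159.5 after paired training. The groups did not overlap. The difference was 1.98 ± 0.24 (SE; 95% interval 1.44 to 2.51; limma adjusted p = 0.00400). Cd180 itself, the receptor that Ly86 is known to accompany, lay below the filter in both conditions, at a mean log2 signal of 2.33 in controls and 2.54 in epileptogenic arrays.

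Ly96, the subunit through which Tlr4 binds its ligand (1382277_at), had the smallest SD of these genes among the epileptogenic arrays. Control signals were 62.3 and 40.7 after unpaired and 49.5 and 43.4 after paired training. Epileptogenic signals were 142 and 145 after unpaired and 133 and 159 after paired training, without overlap. The log2 means were 5.59 ± 0.27 (SD, n = 4) and 7.17 ± 0.11 (SD, n = 4), and they differed by 1.58 ± 0.23 (SE; 95% interval 1.05 to 2.10; limma adjusted p = 0.00826).

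Tlr4, the receptor for lipopolysaccharide and for released Hmgb1 (1387982_at), was dim. Its control signals were 12.3 and 11.7 after unpaired and 4.79 and 26.9 after paired training, so that only the last of them exceeded the level of the filter. Its epileptogenic signals were 40.8 and 34.6 after unpaired and 35.7 and 34.3 after paired training. The epileptogenic arrays lay close together above all controls, and most of the spread was among the controls. The difference of 1.64 ± 0.57 (SE; 95% interval 0.35 to 2.92) did not pass (limma adjusted p = 0.165; 0.0639 with the array letter as a block).

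Tlr2, the surface receptor for bacterial lipoproteins (1392280_at), gave control signals of 4.42 and 33.4 after unpaired and 22.7 and 36.0 after paired training. Its epileptogenic signals were 43.4 and 74.7 after unpaired and 42.5 and 53.4 after paired training. The groups did not overlap, and the highest control lay just under the lowest epileptogenic array. In 4 of 4 groups the array lettered A was lower than the array lettered B. The difference was 1.48 ± 0.59 (SE; 95% interval 0.14 to 2.82; limma adjusted p = 0.221), and with the letter as a block it passed (limma adjusted p = 0.0459). The array control unpaired A was far below the other controls. Without it the difference was 0.75, and without control unpaired B it was 2.21 and passed (limma adjusted p = 0.0372).

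Cd14, which delivers lipopolysaccharide to Tlr4 and Ly96 (1368490_at), stayed below the filter. Control signals were 3.67 and 15.9 after unpaired and 21.4 and 16.8 after paired training. Epileptogenic signals were 18.1 and 49.6 after unpaired and 38.9 and 16.5 after paired training, and the groups overlapped. Fitted without the filter, the difference was 1.20 ± 0.64 (SE; 95% interval -0.21 to 2.61; limma adjusted p = 0.466). It was 0.67 without control unpaired A and 1.72 without control unpaired B.

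Myd88, the adaptor that most of these receptors share (1374468_at), gave control signals of 41.6 and 48.5 after unpaired and 65.0 and 26.4 after paired training. Epileptogenic signals were 101 and 74.2 after unpaired and 93.5 and 60.8 after paired training. The groups overlapped, because control paired A lay above epileptogenic paired B. The difference was 0.91 ± 0.34 (SE; 95% interval 0.15 to 1.66), which did not pass without the block (limma adjusted p = 0.186) and passed with it (limma adjusted p = 0.0451). It was 0.58 without control paired B.

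Hmgb1, the ligand (1388783_at), gave control signals of 2257 and 2021 after unpaired and 2086 and 1661 after paired training. Epileptogenic signals were 1624 and 1775 after unpaired and 2090 and 1484 after paired training. The groups overlapped across most of their range. The difference was -0.21 ± 0.17 (SE; 95% interval -0.60 to 0.19; limma adjusted p = 0.584). That interval leaves room for a decrease, no change or a small increase in RNA, and says nothing of the protein's release. A second Hmgb1 probe set (1398630_at) lay below the filter at signals of 2.21 to 16.3 in controls and 3.01 to 8.68 in epileptogenic arrays, with a difference of -0.57 ± 0.88 (SE) in a fit without the filter (limma adjusted p = 0.845).

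In 5 of the 7 tested genes (Tlr2, Tlr4, Tlr7, Ly86 and Ly96) every epileptogenic array lay above every control array, while 7.29% of all tested probe sets did so. Tlr2 and Tlr4 passed the filter only through their high epileptogenic arrays, so this count is a description. The main fit holds no term for the arrays' letters. Since arrays of like letter deviated together, the letter was also entered as a block in a second fit. With the letter as a block 5 of 7 genes passed, Tlr2 (which the filter kept only for its epileptogenic arrays) and Myd88 in addition, where 7.58% of all probe sets were called higher. Tlr7, Ly86 and Ly96 passed in each of the 8 fits that left out 1 array, with differences of 2.08 to 2.72, 1.83 to 2.13 and 1.42 to 1.73. Tlr4 stayed above the filter in 3 of these fits. Refitted without the filter, it passed in 0 of 8, with differences of 1.02 (without control paired A) to 2.26 (without control paired B) and limma adjusted p from 0.0882 to 0.480.

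The comparison was next made within each training, with 2 arrays against 2. After unpaired training 0 of the 7 genes passed in limma, where 0.290% of all probe sets were called higher; at an unadjusted p under 0.05 it was 4 of 7, and 12.5% of all probe sets in either direction. With the letter as a block 3 passed (Tlr7, Ly86 and Ly96), against 3.40% of all probe sets. Their differences were 2.17 ± 0.47 for Tlr7 (SE; limma adjusted p = 0.106, with the block 0.0109), 1.75 ± 0.33 for Ly86 (0.0727 and 0.00896) and 1.51 ± 0.33 for Ly96 (0.106 and 0.0167). Tlr2 had the largest difference after unpaired training, 2.23 ± 0.84 (SE; limma adjusted p = 0.320), which was 0.77 without control unpaired A and 3.69 without control unpaired B.

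After paired training Ly86 alone passed, with a rise of 2.20 ± 0.33 (SE; limma adjusted p = 0.0310), where 0.521% of all probe sets were called higher. It lost the call in each of the 4 fits that left out a paired array, at limma adjusted p of 0.0726 to 0.243, and also with median centring (0.0931), with no intensity trend (0.103) and in a fit of the paired arrays alone (0.0512), in which Tlr7 was called (0.0418). With the letter as a block the same 3 genes passed as after unpaired training, against 3.45% of all probe sets. Tlr7 differed by 2.62 ± 0.47 (SE; limma adjusted p = 0.0570, with the block 0.00477) and Ly96 by 1.65 ± 0.33 (SE; 0.0758 and 0.0126). The value for Tlr2 was 0.74 ± 0.84 (SE; limma adjusted p = 0.863), for Tlr4 1.63 ± 0.81 (SE; 0.559), for Myd88 0.86 ± 0.47 (SE; 0.610) and for Hmgb1 -0.08 ± 0.25 (SE; 0.964). The value for Tlr2 was 0.40 without control paired A, that for Hmgb1 was 0.17 without epileptogenic paired B, that for Tlr4 was 0.38 without control paired A, and for Myd88 it was 0.21 without control paired B and 1.52 without control paired A.

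**Figure D2:**
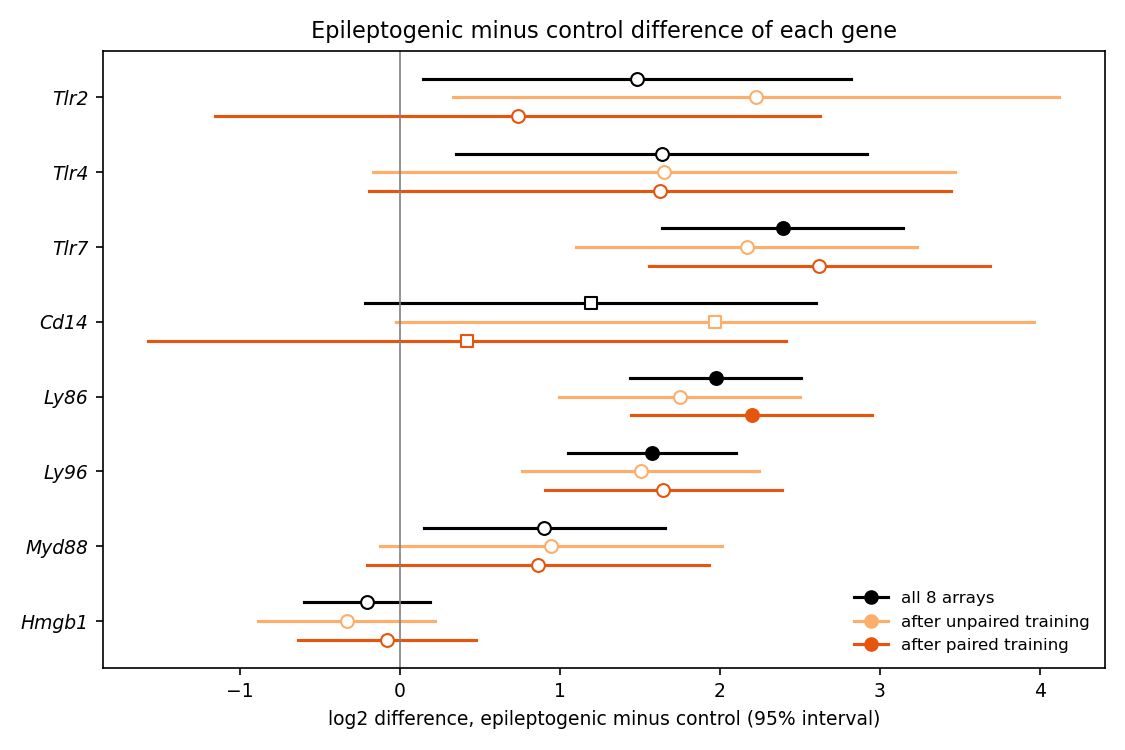
The plot gives, for each gene, the log2 difference of epileptogenic minus control arrays with its 95% interval, over all 8 arrays (black), after unpaired training (light orange) and after paired training (dark orange). Filled symbols passed at an adjusted p under 0.05, and squares mark Cd14, fitted without the filter; the intervals of Tlr7, Ly86 and Ly96 lie above 0 in all 3 comparisons, and those of Hmgb1 span 0.

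Paired and unpaired training were compared to ask whether coupling tone and shock moved these genes within 3 h. Among the 7 genes 0 passed in limma, and 0 of 18625 probe sets did (0%), with 214 of all and 0 of the 7 genes at an unadjusted p under 0.05. The differences of paired minus unpaired training ran from -0.28 ± 0.24 (SE) for Ly86 to 0.49 ± 0.59 (SE) for Tlr2, with 95% intervals of -0.81 to 0.26 and -0.85 to 1.83. The sign for Tlr2 rested on 1 array: its difference was -0.24 without control unpaired A, and it was 1.22 without control unpaired B. The interaction, the epileptogenic difference after paired training minus that after unpaired training, was called for 0 of the 7 genes and for 0 of all probe sets (0%) in limma, with 274 of all and 0 of the 7 at an unadjusted p under 0.05. It was -1.49 ± 1.19 (SE; 95% interval -4.17 to 1.19) for Tlr2 and 0.45 ± 0.67 (SE; 95% interval -1.05 to 1.96) for Tlr7. For Tlr2 it was -0.03 without control unpaired A and -2.95 without control unpaired B, and for Tlr7 it was -0.19 without epileptogenic unpaired A and 1.09 without epileptogenic unpaired B. These intervals are wide enough to hold sizeable effects in either direction, and a p above the threshold does not show that the trainings acted alike.

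The rest of the pathway was read from 7 lists of genes by role, 109 genes in all, of which 94 have a probe set and 61 were tested. Of these 61, 11 rose in epileptogenic arrays, where 2.81% of all probe sets were called higher, and 0 fell. Their median log2 difference was 0.61 against -0.11 over all probe sets. With the letter as a block 20 were higher and 2 lower, where 7.58% of all probe sets were called higher and 8.65% lower. The control means of 9 of the 61 (Irak2, Btk, Irf5, Nfkbia, Il1b, Ccl3, Ccl4, Cd40 and Cd86) lay below the filter level, so these were tested only through their higher epileptogenic arrays, and the counts that hold them are descriptions. In limma 0 of them passed in the comparison of trainings, with 2 at an unadjusted p under 0.05, and 0 in the interaction, with 0 at an unadjusted p under 0.05. Among the other Toll-like receptors only Tlr1 and Tlr8 have a probe set, and both lay below the filter, at mean log2 signals of 3.42 and 3.09 in controls and 4.15 and 4.96 in epileptogenic arrays.

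Among accessory and trafficking proteins 4 of 8 tested genes rose, where 2.81% of all probe sets were called higher. Unc93b1, the chaperone that carries Tlr7 and other nucleic acid sensors to endosomes, had control signals of 33.6 to 48.3 and epileptogenic signals of 146 to 278, a difference of 2.45 ± 0.26 (SE; limma adjusted p = 0.00237). Itgb2, the beta chain of the leukocyte integrins, went from 50.8 to 84.3 in controls to 236 to 379 in epileptogenic arrays, a rise of 2.15 ± 0.25 (SE; limma adjusted p = 0.00353). The endosomal proteases Ctss and Lgmn, which cut endosomal receptors such as Tlr7 and Tlr9 into their active form in mouse cells, rose by 2.02 ± 0.25 and 1.60 ± 0.18 (SE; limma adjusted p = 0.00400 and 0.00309). A second Lgmn probe set below the filter gave -0.55 (limma adjusted p = 0.860 without the filter). The 4 tested genes that did not pass were the chaperones Hsp90b1 (0.24), Cnpy3 (0.24) and Cnpy4 (0.69) and the transporter Slc15a4 (0.05).

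Of 16 adaptors and kinases tested 1 rose, against 2.81% of all probe sets, and with the letter as a block 3 were higher and 1 lower. It was Pik3ap1, an adaptor that links the receptors to PI3-kinase, by 1.44 ± 0.28 (SE; limma adjusted p = 0.0268), and it lost the call in each of the 8 fits that left out an array. The kinase Irak1 (0.05 ± 0.21, SE) and the ubiquitin ligase Traf6 (0.39 ± 0.30, SE), which act below Myd88, did not pass. Irak4 lay below the filter. The 16 tested had a median difference of 0.22. For this list and the next, 2.81% of all probe sets were called higher. With the letter as a block 7.58% of all were higher and 8.65% lower. In the NF-kB and interferon regulatory factor branch 2 of 8 rose (4 with the letter as a block): Irf8, a transcription factor of myeloid cells, by 2.15 ± 0.30 (SE; limma adjusted p = 0.00665), and Irf7, which is known to act in interferon induction below Tlr7, by 1.48 ± 0.32 (SE; limma adjusted p = 0.0407), a call kept in 1 of the 8 fits without an array. Irf5, also known to act below Tlr7, stood at 1.91 ± 0.59 (SE; limma adjusted p = 0.120, with the block 0.0306) over a control mean below the filter level, and Nfkb1 at 0.67 ± 0.22 (SE; 0.138 and 0.0318).

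Of 11 inhibitors tested, 2 rose. For these and for the ligands below, 2.81% of all probe sets were called higher. With the letter as a block 2 inhibitors were higher and 1 lower, and 5 of the 10 ligands were higher. That block called 7.58% of all probe sets higher and 8.65% lower. Nfkbiz, a nuclear regulator of NF-kB that also switches on some of its targets, rose by 1.59 ± 0.27 (SE; limma adjusted p = 0.0164; called in 5 of 8 fits without an array), and its second probe set below the filter gave -0.02. Inpp5d, the lipid phosphatase SHIP1, rose by 1.38 ± 0.24 (SE; limma adjusted p = 0.0174; 4 of 8 fits). Of 10 endogenous ligands tested, the matrix proteins biglycan (Bgn), by 1.76 ± 0.32 (SE; limma adjusted p = 0.0201; 4 of 8 fits), and tenascin C (Tnc), by 1.35 ± 0.24 (SE; limma adjusted p = 0.0195; 2 of 8 fits), rose. Hmgb3, a relative of Hmgb1, stood at -0.09 ± 0.18 (SE).

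Of 21 genes known as targets of Toll-like receptor signalling 8 were tested and 0 passed in limma, with 3 at an unadjusted p under 0.05 (18.4% of all probe sets in either direction) and 2 higher with the letter as a block (7.58% of all). The closest were Vcam1, an adhesion molecule, at 0.78 ± 0.18 (SE; limma adjusted p = 0.0549, with the block 0.00279), and Cd86, a costimulatory protein, at 2.64 ± 0.66 (SE; 0.0661 and 0.0131), which had a control mean below the filter level and whose second probe set gave 1.01. The cytokine gene Il1b stood at 0.63 ± 0.49 (SE, limma adjusted p = 0.537). Ccl3 stood at 1.75 ± 0.83, Cd40 at 0.96 ± 0.41 and Ccl4 at 0.33 ± 0.89 (SE). Below 0 were Sod2 (-0.11 ± 0.25, SE) and Ptgs2 (-0.53 ± 0.32, SE). Control means of Il1b, Ccl3, Ccl4 and Cd40 lay below the filter level. The 8 tested targets had a median difference of 0.71. The targets not tested, Tnf, Il6 and Ccl2 among them, lay below the filter.

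**Figure D3:**
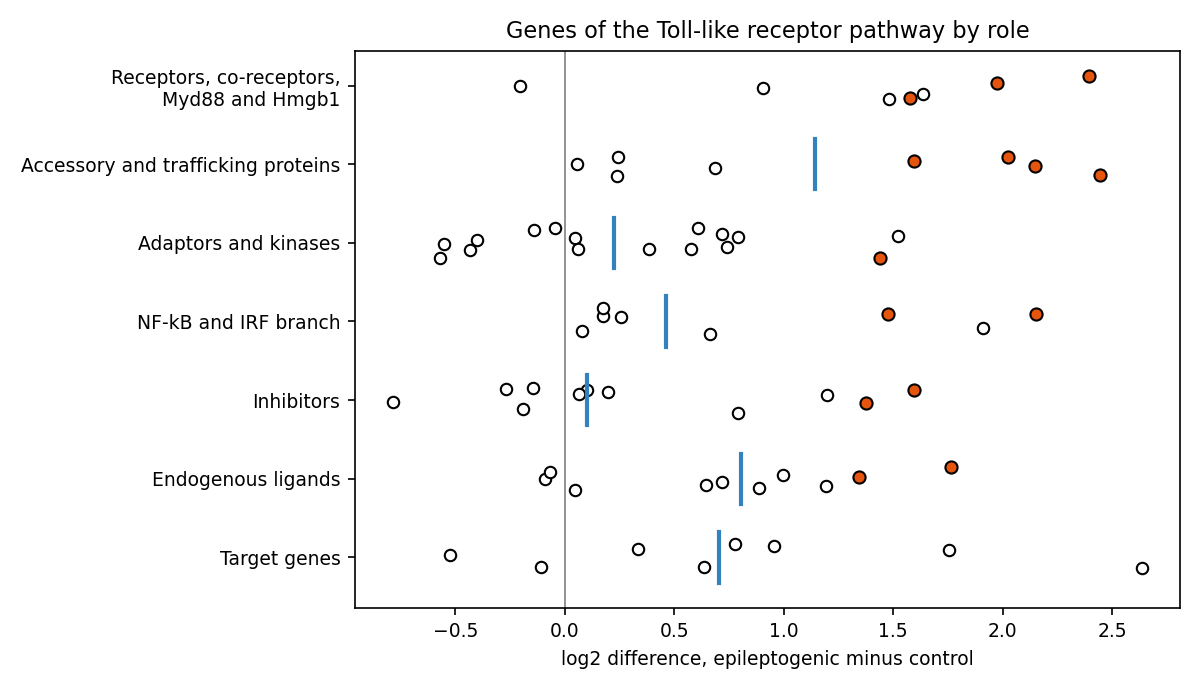
Each point is 1 tested gene, placed by its log2 difference of epileptogenic minus control arrays within its role (vertical scatter inside a row carries no meaning); filled points passed at an adjusted p under 0.05 and blue bars are medians of the lists. Called genes lie at the right end of the rows of accessory proteins, adaptors, the NF-kB and interferon regulatory factor branch, inhibitors and ligands, and the row of target genes has none.

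Markers of microglia and macrophages moved with Tlr7, Ly86 and Ly96. Of 12 listed markers 9 were tested, and 7 rose, where 2.81% of all probe sets were called higher. The 9 had a median difference of 1.75, and no marker has a signal of 0 on any array. Cd68, 1 of the 7, had a control mean of 4.12, below the filter level, and was tested only through its higher epileptogenic arrays. The count is therefore a description. Over the 10 markers with a probe set, which include Itgam below the filter, the mean log2 signal was 4.63 to 5.82 on control arrays. On epileptogenic arrays it was 7.09 to 7.53. The difference was 1.97, beside 2.40 for Tlr7, 1.98 for Ly86 and 1.58 for Ly96. Among the defining markers, Csf1r rose by 1.68 and P2ry12 by 1.75, Tmem119 stood at 1.07 (limma adjusted p = 0.113) and Cx3cr1 at -0.40 ± 0.58 (SE). The part of microglial markers in the differences of these receptors was not tested.

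Markers of other cells were read in the same way. Of 12 markers of invading monocytes and neutrophils 3 were tested and 1 rose (Mrc1, also a marker of resident border macrophages), against 2.81% of all probe sets. Plac8 stood at 1.33 ± 0.35 (SE; limma adjusted p = 0.0732, with the block 0.0145) and Lyz2 at 0.69 ± 0.30 (SE; 0.266 and 0.0759). With the block 2 of the 3 were higher, against 7.58% of all. S100a8, S100a9, Ccr2, Fcnb and Cd163 lay below the filter. Each list mean holds all markers with a probe set, those below the filter included. The mean of the monocyte and neutrophil list, over 8 markers, was 3.89 to 4.83 on control arrays. On epileptogenic arrays it was 4.55 to 5.34, and the ranges overlap. All 7 T and B cell markers with a probe set were below the filter. The mean of the astrocyte markers was 9.18 to 9.70 on control and 9.80 to 10.08 on epileptogenic arrays. Of 8 tested 2 were higher (Gfap by 2.83 and Aqp4 by 0.84), against 2.81% of all probe sets. The median difference of the 8 was 0.24. The mean of the excitatory neuron markers was 6.95 to 7.25 and 5.53 to 6.05 in the same order. Of 6 tested 3 were lower, where 154 of 18625 probe sets were called lower. The part of these markers in the differences was not tested either.

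**Figure D4:**
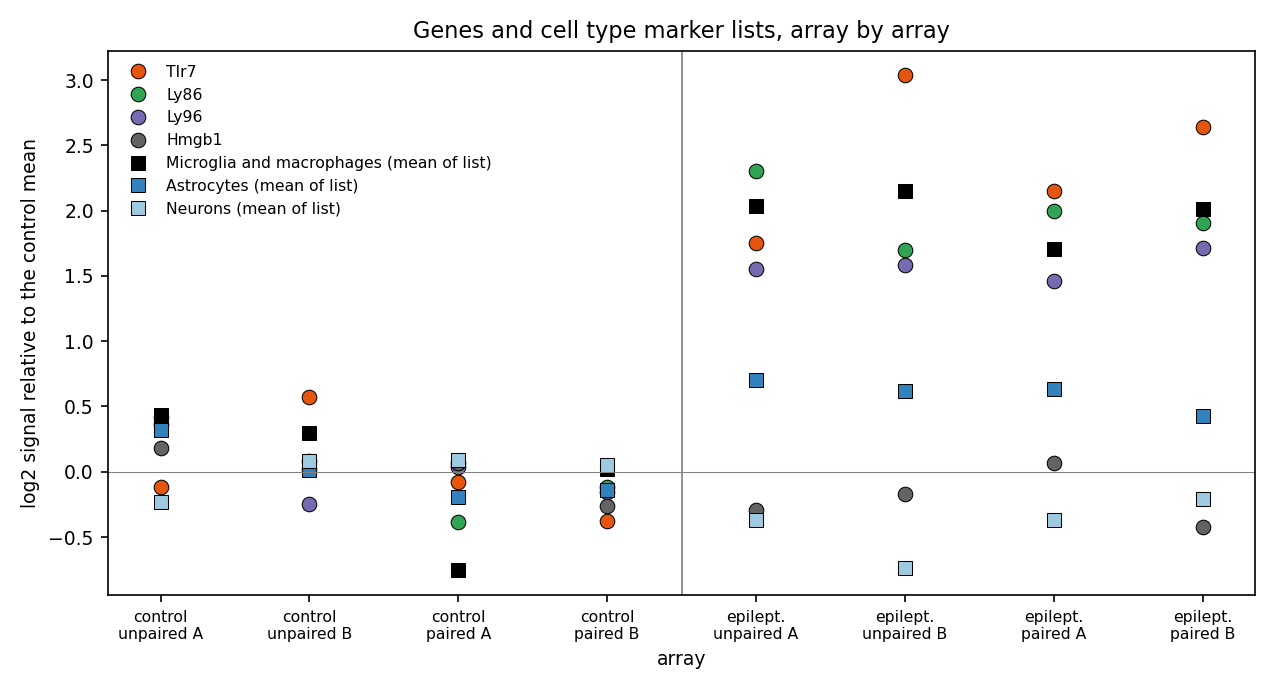
For each of the 8 arrays the plot gives the log2 signal, relative to the mean of the 4 control arrays, of Tlr7, Ly86, Ly96 and Hmgb1 (circles) and of the mean over 3 cell type marker lists (squares). On the epileptogenic arrays the microglia and macrophage list lies at 1.70 to 2.15, Ly86 at 1.70 to 2.30, Ly96 at 1.46 to 1.72 and Tlr7 at 1.75 to 3.04, whereas Hmgb1 lies at -0.43 to 0.07.

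The genes whose profiles over the 8 arrays were most like those of the members were found among 10364 genes by the root mean square difference of log2 values after subtracting each gene's mean, and are given as a description. For Tlr7 they were Igf1 (0.16), a growth factor, and Axl (0.28), a receptor for apoptotic cells. For Ly86 they were Enpp6 (0.16) and Ifi30 (0.18), a lysosomal reductase. For Ly96 they were Ptpn18 (0.15) and Gbp4 (0.16), and for Tlr2 they were Rab23 (0.23) and Mpst (0.34). For Tlr4 they were Dcxr (0.26) and Nusap1 (0.32), for Myd88 the transcription factor gene Myc (0.14) and the lysosomal activator gene Gm2a (0.15), and for Hmgb1 Zfp457 (0.06) and Ift172 (0.08). No member was among the 2 nearest genes of another.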

How the data were processed

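RNA of the rat basolateral amygdala was measured on 8 Affymetrix rat genome arrays, 2 per group. The deposited values are signal intensities on a linear scale, made with MAS5 per the submitters' processing notes; its version and scaling target are not given in the sources used here. All were above 0. Their log2 was taken without an offset, and no normalization between arrays was added. After 57 control probe sets were left out, probe sets whose mean log2 signal exceeded the 40th percentile of the rest were tested. Probe sets were named from GEO's platform annotation (20826 with 1 symbol, 436 with several and 9780 with none), with symbols checked by Entrez number against RefSeq, which changed 0. A further probe set annotated to Hmgb1 and a second gene was left out. Where a gene has several probe sets, that of highest mean signal stands for it.

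Tests were two-sided moderated tests in limma 3.58.1 (R 4.3.3) on 4 group means over all 8 arrays, with a prior variance that follows the intensity and Benjamini-Hochberg adjustment over 18625 probe sets at 0.05. Cd14 and the second Hmgb1 probe set come from the same fit without the filter. SE are from the fit, and SD are between arrays. The script was tested on simulated data. The number of arrays limits the precision, and detection calls were not used here. Between any pair of groups (6 pairs) the deviations of arrays from the group mean correlated by 0.321 to 0.407 for like letters, so the letter, whose meaning the labels do not give, was also entered as a block. Figures were drawn with matplotlib 3.10.9 (Python 3.11.15).

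The members, the 7 role lists, the 11 marker lists and the tests were chosen with earlier results of these data known. All members are named. Each role list gives at most 4 genes that passed, by size of difference, or the 2 with the smallest p. Added after their values were seen were Hsp90b1, Cnpy3, Cnpy4, Slc15a4, Cd180, Irak1, Irak4, Traf6, Irf5, Nfkb1 and Hmgb3. So were Il1b, Ccl3, Ccl4, Cd40, Sod2, Ptgs2, Tnf, Il6 and Ccl2. Of the marker lists not described in the report, oligodendrocytes, endothelium, other neurons, red blood cells, choroid plexus and striatum had 0 markers called in limma (2 of 5, 2 of 6, 5 of 8, 0 of 1, 0 of 2 and 1 of 5 at an unadjusted p under 0.05). With the block 4 of 8 markers of other neurons were lower, and 2 of 5 of oligodendrocytes, 1 of 6 of endothelium and 1 of 5 of striatum were higher. Over all probe sets 7.58% were called higher and 8.65% lower with the block, and 18.4% had an unadjusted p under 0.05. The mean of the oligodendrocyte list differed by 0.69 and that of other neurons by -0.42. The alternatives tried were median centring, quantile normalization, an offset of 16 added to the signal, no filter, a filter at the 60th percentile, no intensity trend, the letter as a block, each letter alone, the arrays of 1 training alone, leaving out each array, and averaging the probe sets of a gene. The leave-one-out fits of Tlr4 without the filter were added after the data were seen.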

Additional observations from a re-analysis of the deposited data

Results flagged for a closer look

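For each of the 9 probe sets, the lowest and the highest of the 4 control and of the 4 epileptogenic arrays were set against the others by Dixon's test, which makes 18 groups of 4. In 1 of them an array stood apart: Cd14 on control unpaired A had a log2 signal of 1.877, and its gap to the nearest control was 0.832 of the group's range, just past Dixon's critical value at the 95% level. Chance flags about 1 in 20 such groups. The gene lies below the filter, and its difference with and without that array is given in the report.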

How the results depend on the processing

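Under quantile normalization, median centring, the offset of 16 and no intensity trend, 3 of the 7 tested genes were called for epileptogenic against control arrays. It was also 3 with no filter, the stricter filter and averaged probe sets, and 5 with the replicate block. That block called 7.58% of all probe sets higher. Each letter alone leaves 1 array in a group, so only differences are given. Within letter A, Ly96 stood at 1.30 and Myd88 at 0.90. Within letter B, Ly96 stood at 1.85 and Myd88 at 0.91. The differences without 1 array are given in the report. After unpaired training the count was 3 with the replicate block and 0 otherwise. After paired training it was 3 with the replicate block, 0 with median centring, 0 with no intensity trend, 0 to 2 without 1 array, and 1 otherwise; with only the arrays of that training the 1 gene was Tlr7 (limma adjusted p = 0.0418), and Ly86 was at 0.0512. The counts for training and the interaction were 0 under every alternative run, the replicate block included. The 7 are the genes tested in the main fit, and some alternatives tested other numbers. Tlr2 and Tlr4 were not tested under the stricter filter or within letter A. Tlr4 was not tested with averaged probe sets, and the fit without a filter also held Cd14. No called value changed sign. The replicate block changed no other call of the members.

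The offset lowered the differences of dim genes, to 0.86 for Tlr2 and 0.86 for Tlr4, and that of Tlr7 to 1.90. Median centring moved the median of all probe sets from -0.11 to -0.005, and Hmgb1 stood at -0.10 under it. Within a letter the comparisons of a single training could not be fitted, and the interaction has no fit there either. A fit without 1 array leaves a lone array in its group, which is assumed to vary like the other groups. Tlr2, Tlr4 and Cd14 had control means below the filter level, and their SD over the controls (1.02 to 1.42) was larger than those of the other 5 genes (0.19 to 0.54).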
